A study of Mus musculus with 6 samples.

Results

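The AKT kinases and the proteins that switch them on and off were followed as 8 genes: the kinases Akt1 and Akt2, their activating kinase Pdpk1, the phosphatases Phlpp1 and Phlpp2, the lipid phosphatase Inpp5d, and the downstream brake Tsc1 with Tsc2. A probe set was taken where the annotation of the Affymetrix mouse array gives exactly 1 of these symbols, and the brightest such probe set by its 6-array mean stood for the gene. All 8 genes were found, among 18193 genes with such a probe set, and they had 18 of the 45037 probe sets that are no array control. No probe set was annotated to a member together with another gene.

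AKT is a serine/threonine kinase that is recruited to the cell membrane by the phosphoinositides that PI3K makes after B-cell receptor signalling. PDPK1 phosphorylates AKT in its activation loop and mTOR complex 2 phosphorylates it near the carboxy terminus; PHLPP1 and PHLPP2 remove the latter phosphate. SHIP-1, the product of Inpp5d, hydrolyses the membrane lipid and damps signalling downstream of inhibitory Fc receptors on B cells. AKT in turn inactivates TSC2, which with TSC1 holds back RHEB and mTOR complex 1. Activity of this pathway is set largely by phosphorylation, which RNA levels do not measure.

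Total RNA came from splenic germinal centre B cells, the dividing and mutating B cells of an immune response, isolated with magnetic beads after immunisation with sheep red blood cells. ImHABCL6 mice, known as a line with a tagged BCL6 driven from the immunoglobulin heavy-chain locus, were the controls (3 arrays). ImHABCL6/Uchl1 mice carried the same BCL6 allele together with a transgene for Uchl1, a deubiquitinating enzyme (3 arrays), so deregulated BCL6 is shared by both groups. Neither the ages of the mice nor the promoter of the Uchl1 transgene is stated in the labels. The question for the AKT genes is whether their RNA differs when Uchl1 is added, since UCH-L1 has been linked to AKT signalling through PHLPP1 in earlier work on lymphoma.

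The values are log2 expression levels, on which a difference of 1 is a doubling, and the array medians ran from 5.56 to 5.67. With 3 arrays a group, the number of arrays limits the precision. The Uchl1 probe set (1448260_at) read 4.999 to 5.02 in the controls and 5.87 to 6.02 in the transgenic arrays, in the direction of the labels (difference 0.94, SE 0.12, limma adjusted p = 0.638). It was dim in both groups, its transgenic mean of 5.95 lying under the median gene level of 6.32. Bcl6 differed by 0.24 (limma adjusted p = 0.998). The 12 measured of 14 markers of germinal centre B cells had levels from 8.47 (Pax5) to 14.6 (Ighm). Red-cell precursor transcripts were also present: the mean of 15 measured of 19 erythroid markers was 10.38, 10.95 and 11.36 in control replicates 1 to 3 and 8.94, 10.82 and 10.20 in the ImHABCL6/Uchl1 replicates (exact two-sided permutation p = 0.2, where 0.1 is the smallest possible). Of the 15 markers 14 averaged lower with the transgene and 1 higher, where 49.4% of all genes lay lower. Their median difference was -1.02, and 0 had a limma adjusted p under 0.05. The dimmest of the erythroid markers was Hba-a1 at 4.19, a level within the NK cell means given next, and the brightest Car2 at 13.6. The lowest value of any probe set on any array was 2.16. The means of the other marker lists varied by array. They ran from 4.06 to 4.34 for NK cells, 5.67 to 5.84 for T cells and 8.49 to 8.81 for plasma cells. For macrophages they were 5.29 to 5.93, for dendritic cells 5.62 to 6.24 and for megakaryocytes, the widest of these, 7.57 to 8.96. Of the macrophage markers, Lyz2 read 10.55 in ImHABCL6/Uchl1 replicate 3 and 7.30 to 8.89 elsewhere. Csf1r read 8.11 in that array and 6.46 to 6.84 elsewhere, while the list's other markers did not stand apart there. The neutrophil mean was 6.57 in control replicate 1 and 5.23 to 5.54 in the other arrays.

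Promoters of Inpp5d, Akt1 and Phlpp2 are shown because these 3 members had the largest differences between the genotypes and followed the erythroid mean most closely by rank, the first pair downward and Phlpp2 upward. Each sequence is from RefSeq (GRCm38.p6), runs 5′ to 3′ on the gene's strand, and covers 250 bases before to 50 after a transcription start. Capitals mark a match to 1 of 5 motifs searched on both strands: TGTTTAC (FOXO core), CCGGAAGT (ETS core), GAGGAAGT (PU.1 box), CACGTG (E-box) and TTCCNNGAA (BCL6-type core). None of these motifs overlapped another in the sequences shown.
Inpp5d, chr1:87620062-87620361, plus strand: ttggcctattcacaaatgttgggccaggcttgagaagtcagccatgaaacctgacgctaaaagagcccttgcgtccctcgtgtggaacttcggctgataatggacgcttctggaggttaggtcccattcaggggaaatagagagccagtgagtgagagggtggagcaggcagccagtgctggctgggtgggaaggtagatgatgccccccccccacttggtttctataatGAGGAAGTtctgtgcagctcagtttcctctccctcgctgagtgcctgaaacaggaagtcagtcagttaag
Akt1, chr12:112674835-112675134, minus strand: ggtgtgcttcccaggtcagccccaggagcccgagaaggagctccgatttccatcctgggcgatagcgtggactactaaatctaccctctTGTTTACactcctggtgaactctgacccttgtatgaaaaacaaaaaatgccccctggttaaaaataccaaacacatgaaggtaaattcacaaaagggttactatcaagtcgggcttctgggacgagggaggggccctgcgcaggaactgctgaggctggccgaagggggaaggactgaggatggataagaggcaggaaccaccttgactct
Phlpp2, chr8:109868353-109868652, plus strand: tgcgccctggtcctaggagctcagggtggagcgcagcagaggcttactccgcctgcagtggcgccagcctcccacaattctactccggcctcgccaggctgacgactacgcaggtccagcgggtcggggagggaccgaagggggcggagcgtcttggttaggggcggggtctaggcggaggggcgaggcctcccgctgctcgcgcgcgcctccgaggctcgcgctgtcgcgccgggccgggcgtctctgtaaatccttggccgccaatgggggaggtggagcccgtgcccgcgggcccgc

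The Inpp5d window held a PU.1 box 20 to 13 bases before the start (positions -20 to -13), a motif that 3.2% of 32851 promoters of this length hold. The Akt1 window held a FOXO core at positions -161 to -155, against 3.65% of all promoters, and a further annotated Akt1 start, 42 CG dinucleotides in its window, held none of the 5 motifs. The Phlpp2 window held no match and had 34 CG dinucleotides, where the Inpp5d window had 6 and the median promoter 7. The ETS core (3.89% of promoters) was matched at Tsc2, and the BCL6-type core (4.81%) at 1 start each of Akt2 and Pdpk1. The E-box (7.15%) was matched at no member. A match describes letters in the window and not a bound site.

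No member passed the threshold between genotypes. With limma, 0 of 8 members had a Benjamini-Hochberg adjusted p under 0.05, as did 0 of all 18193 genes (0%), and 0 of the 18 member probe sets or of 45037 probe sets (0%). At an unadjusted limma p under 0.05 there was 1 member, Phlpp2, against 4.94% of all genes (898). Phlpp2 was also the 1 member of 8 whose groups did not overlap, in the lower direction, where 5.49% of genes lay fully lower, 3.95% fully higher and 9.44% either. Of the 8 members 4 lay lower and 4 higher on average, near the 49.4% of all genes that lay lower. The median size of a member's difference was 0.10 on the log2 scale, beside 0.12 for all genes. Among the 18 probe sets 6 lay lower and 12 higher, and 3 separated the groups, where 9.36% of all probe sets did.

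**Figure D1:**
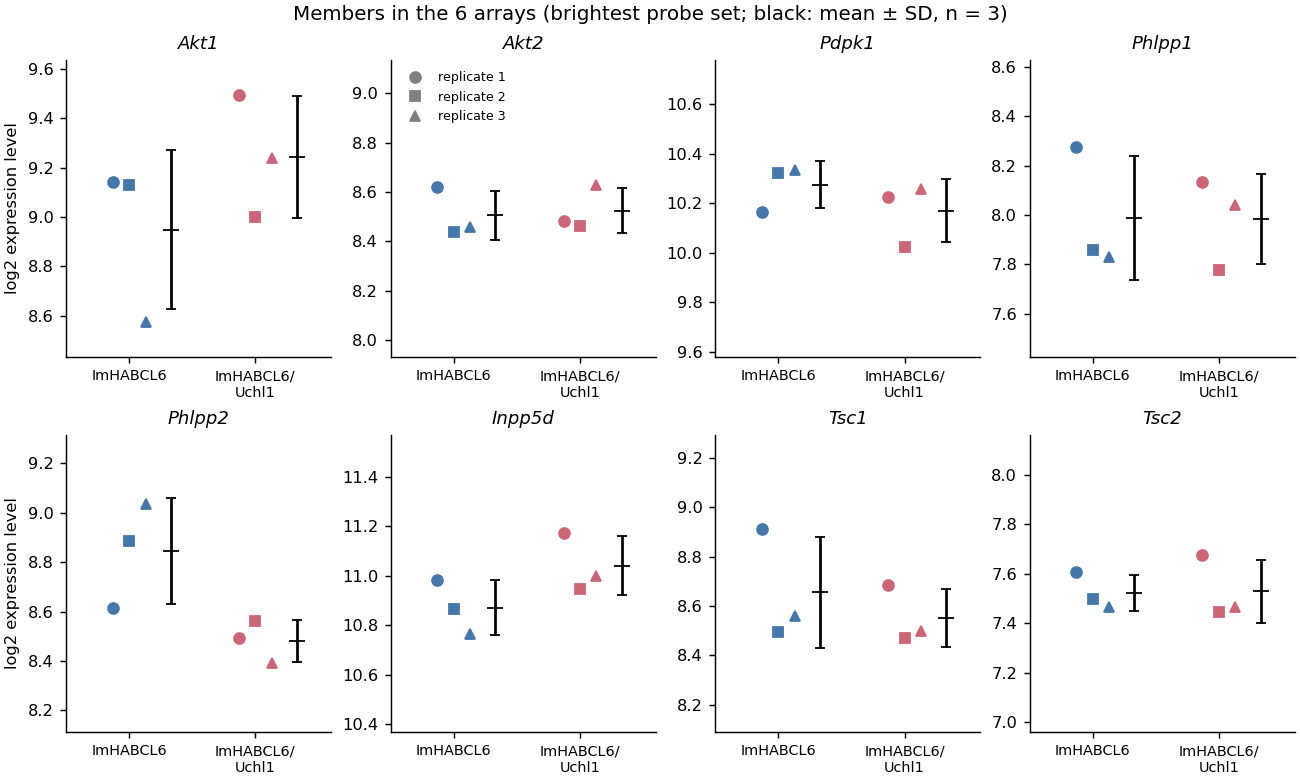
Log2 expression level (vertical axis, each panel spanning 1.2 units) of the 8 members in 3 ImHABCL6 arrays (blue) and 3 ImHABCL6/Uchl1 arrays (red), with marker shape for the replicate and black bars for mean ± SD. Phlpp2 is the 1 panel in which the groups do not overlap.

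Of the kinases, Akt1 averaged higher with the Uchl1 transgene but overlapped between genotypes. AKT1, the more widely expressed kinase of the pair, read 9.14, 9.13 and 8.58 in ImHABCL6 cells and 9.49, 8.998 and 9.24 in ImHABCL6/Uchl1 cells on probe set 1416657_at, or 8.95 ± 0.32 against 9.24 ± 0.25 (SD, n = 3 each). Control replicate 3 was far below the other arrays, and ImHABCL6/Uchl1 replicate 2 lay below the controls 1 and 2. The log2 difference was 0.29 (SE 0.20, limma adjusted p = 0.998), with a 95% interval from -11.3% to 69.6%. It was 0.11 without control replicate 3, 0.17 without ImHABCL6/Uchl1 replicate 1 and 0.0077 with the erythroid mean as a covariate. After quantile normalization it was 0.38 and the groups no longer overlapped.

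All 4 Akt1 probe sets averaged higher, but they did not share 1 profile over the arrays: beside 1416657_at, 1425711_a_at had r = 0.826, 1440950_at r = 0.0066 and 1442759_at r = -0.064 over 6 arrays of the same libraries. Probe set 1440950_at separated the groups, at 7.15, 7.24 and 7.25 in ImHABCL6 cells and 7.36, 7.91 and 7.47 in ImHABCL6/Uchl1 cells, a difference of 0.37 (SE 0.17, limma adjusted p = 0.999 over all probe sets). ImHABCL6/Uchl1 replicate 2, the highest array on this probe set, was the lowest of its group on 1416657_at. Probe set 1425711_a_at differed by 0.06 and the dim 1442759_at by 0.11, with overlap in both.

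Akt2 and Pdpk1 were close between genotypes. AKT2, the isoform best known from insulin signalling, read 8.62, 8.44 and 8.46 in the controls and 8.48, 8.46 and 8.63 with the transgene (1424480_s_at), the narrowest range of any member over the 6 arrays (0.19). Its difference was 0.018 (SE 0.13), with a 95% interval from -17.6% to 24.3%. The ending _s_at marks a probe set whose probes can match several transcripts, so this level is uncertain. The dimmer 1421324_a_at separated the groups, with 6.10, 6.17 and 6.30 in ImHABCL6 cells and 6.40, 6.43 and 6.35 in ImHABCL6/Uchl1 cells (difference 0.21, SE 0.12, limma adjusted p = 0.999), whereas 1455703_at overlapped at a difference of 0.12.

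Pdpk1, which encodes the master kinase of AKT and related enzymes, read 10.17, 10.32 and 10.34 in ImHABCL6 cells and 10.23, 10.02 and 10.26 in ImHABCL6/Uchl1 cells (1415729_at). Only ImHABCL6/Uchl1 replicate 2 lay outside the range of the controls. The difference was -0.11 (SE 0.13), with a 95% interval from -24.9% to 14.95%. The second probe set, 1416501_at, differed by -0.021, with ImHABCL6/Uchl1 replicate 2 again the lowest array at 9.36 and replicate 3 the highest at 9.94. That probe set was at 0.070 after quantile normalization. On the brighter probe set the difference stayed negative in all 15 alternatives, but was -0.015 after quantile normalization, -0.033 without ImHABCL6/Uchl1 replicate 2 and -0.16 without control replicate 1.

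For the PHLPP phosphatases, all 3 ImHABCL6/Uchl1 arrays were below all 3 controls for Phlpp2, and the group means of Phlpp1 were 7.99 and 7.98. Phlpp2 read 8.61, 8.89 and 9.04 in ImHABCL6 cells and 8.49, 8.56 and 8.39 in ImHABCL6/Uchl1 cells (1435601_at), or 8.85 ± 0.21 against 8.48 ± 0.08 (SD, n = 3 each). Control replicate 1 lay nearest to the transgenic arrays. The difference was -0.36 (SE 0.15, unadjusted limma p = 0.041, adjusted p = 0.992), 1.29-fold, with a 95% interval from -38.8% to -1.31%, and the exact two-sided permutation p was 0.1, a floor set by 3 arrays a group.

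After quantile normalization the Phlpp2 groups overlapped, with a difference of -0.28. They did not overlap with median centring or with the mean of both probe sets. Leaving out 1 array cannot make groups overlap that are apart with all arrays, so those settings say nothing on this point. The mean of both Phlpp2 probe sets gave a difference of -0.17, because the dim probe set 1444593_at, between 3.09 and 3.36 on all arrays, differed by 0.026. The difference lay between -0.48 and -0.27 when any 1 array was left out and was -0.27 with the erythroid covariate, with a limma adjusted p of 0.170 to 0.9998 over all alternatives.

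Phlpp1, the phosphatase linked to UCH-L1, has 1 probe set (1426994_at). It read 8.27, 7.86 and 7.83 in ImHABCL6 cells and 8.13, 7.78 and 8.04 in ImHABCL6/Uchl1 cells, so that control replicate 1 was the highest array, ImHABCL6/Uchl1 replicates 1 and 3 lay next and replicate 2 was the lowest. The means were 7.99 ± 0.25 and 7.98 ± 0.18 (SD, n = 3 each), a difference of -0.0036 (SE 0.17, limma adjusted p = 0.999). The 95% interval ran from -24.2% to 31.3%, so with 3 arrays a group a change of either sign within it remains possible. Control replicate 1, the highest array for Phlpp1, was also the array of the high neutrophil mean, and the part of these cells in its level was not tested. Its sign turned with the setting, from -0.22 with the erythroid covariate to 0.14 without control replicate 1.

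**Figure D2:**
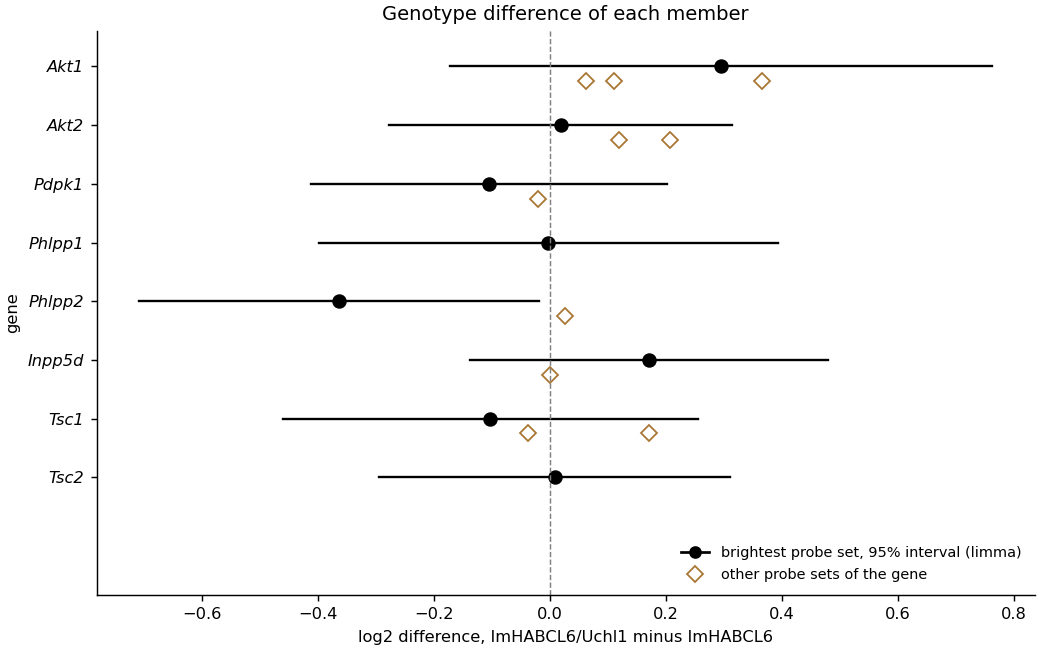
Log2 difference between genotypes (horizontal axis, ImHABCL6/Uchl1 minus ImHABCL6) for the brightest probe set of each member (black, with limma's 95% interval, n = 3 a group) and for its other probe sets (open diamonds). The Phlpp2 interval, from -0.71 to -0.02, is the 1 that leaves out 0; that of Phlpp1 spans -0.40 to 0.39.

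Inpp5d, the gene of SHIP-1, was bright and averaged higher with the transgene. It read 10.99, 10.86 and 10.76 in ImHABCL6 cells and 11.18, 10.95 and 11 in ImHABCL6/Uchl1 cells (1418110_a_at), or 10.87 ± 0.11 against 11.04 ± 0.12 (SD, n = 3 each). Control replicate 1 lay above ImHABCL6/Uchl1 replicate 2, so the groups overlapped. The difference was 0.17 (SE 0.13, limma adjusted p = 0.998, exact permutation p = 0.2), with a 95% interval from -9.15% to 39.4%. Quantile normalization gave 0.24 and separated the groups, the erythroid covariate gave 0.039, and leaving out ImHABCL6/Uchl1 replicate 1 gave 0.10. The second probe set, 1424195_a_at, averaged 7.44 in both groups.

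Tsc1 and Tsc2, whose proteins form the complex that keeps RHEB inactive, overlapped between genotypes. Tsc1 read 8.91, 8.50 and 8.56 in ImHABCL6 cells and 8.69, 8.47 and 8.50 in ImHABCL6/Uchl1 cells (1455252_at), where replicate 1 of each group was the high array. Its difference was -0.10 (SE 0.16; 95% interval -27.4% to 19.3%), but 0.025 without control replicate 1 and -0.26 with the erythroid covariate. The other Tsc1 probe sets differed by 0.17 (1439989_at) and -0.038 (1422043_at). Tsc2, with 1 probe set (1452105_a_at), read 7.61, 7.50 and 7.46 in ImHABCL6 cells and 7.68, 7.44 and 7.47 in ImHABCL6/Uchl1 cells. Its difference was 0.0074 (SE 0.13), with a 95% interval from -18.5% to 23.9%.

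Whether the genotype difference was unequal between partners was tested on the within-array difference of 3 pairs. Akt1 minus Akt2 was higher by 0.28 with the transgene, Phlpp1 minus Phlpp2 by 0.36, and Tsc1 minus Tsc2 differed by -0.11. Akt1 minus Akt2 was 0.11 without control replicate 3, 0.13 without ImHABCL6/Uchl1 replicate 1 and 0.094 when each gene's probe sets were averaged. Phlpp1 minus Phlpp2 was 0.62 without control replicate 1, 0.19 without control replicate 3 and 0.17 on averaged probe sets, and Tsc1 minus Tsc2 was -0.025 without control replicate 1, -0.18 without control replicate 2 and 0.0024 on averaged probe sets. The exact two-sided permutation p was 0.4 for each pair, and 0.4 after Benjamini-Hochberg adjustment over the 3 pairs. For the PHLPP pair the control values were -0.34, -1.03 and -1.21 and the transgenic values -0.36, -0.78 and -0.35, so control replicate 1 lay above the transgenic arrays. With 3 arrays a group the smallest possible p of this test is 0.1, so no pair could pass the threshold whatever its values. The test therefore cannot decide whether Phlpp1 and Phlpp2, or the genes of the other pairs, changed unequally.

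Inpp5d followed the red-cell precursor signal more closely than any other member. Ordered by the erythroid mean, the 6 arrays ran from ImHABCL6/Uchl1 replicate 1, the lowest, to control replicate 3, the highest, and Inpp5d had exactly the reverse order. Over the 6 arrays Pearson's r was -0.969 (exact permutation p = 0.00139, adjusted over the 8 members 0.0111) and Spearman's rho -1 (exact p = 0.00278, adjusted 0.0222). An r at least as negative was found for 36 of all 18193 genes, 0.198%, with genes of positive r not counted. Without the 2 arrays farthest from the median erythroid mean, which were control replicate 3 and ImHABCL6/Uchl1 replicate 1, r was -0.897. It was -0.999 within the 3 controls and -0.994 within the 3 ImHABCL6/Uchl1 arrays. On 3 arrays such values were not particular to Inpp5d. Tsc2 had -0.979 and -0.970, Phlpp1 -0.934 and -0.897, Tsc1 -0.843 and -0.976, and Akt1 -0.825 and -0.985. Akt2 (-0.864 and 0.099) and Pdpk1 (0.934 and -0.662) differed in sign between the groups. The dimmer Inpp5d probe set 1424195_a_at did not keep the reverse order, with control replicate 1 (7.63) above ImHABCL6/Uchl1 replicate 3 (7.34). These relations were examined after the values had been seen.

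Akt1 and Phlpp2 ran with the erythroid mean in opposite directions but did not pass. Akt1 had r = -0.883 (exact permutation p = 0.0292, adjusted 0.117) and rho = -0.943 (adjusted exact p = 0.0667). Of all genes 5.04% had an r at least as strong, here counted in either sign, unlike the share given for Inpp5d. Phlpp2 had r = 0.712 (exact permutation p = 0.103, adjusted 0.206) and rho = 0.886 (adjusted exact p = 0.0889), with r = 0.998 within the controls and 0.212 within the ImHABCL6/Uchl1 arrays. Without the same 2 arrays r was -0.717 for Akt1 and 0.790 for Phlpp2. The other 5 members had adjusted exact p-values for r from 0.137 to 0.768. The preparation is a mixture, so fewer B cells and less RNA per B cell cannot be told apart, and the part of red-cell RNA in the member differences was not tested beyond the covariate values given above.

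**Figure D3:**
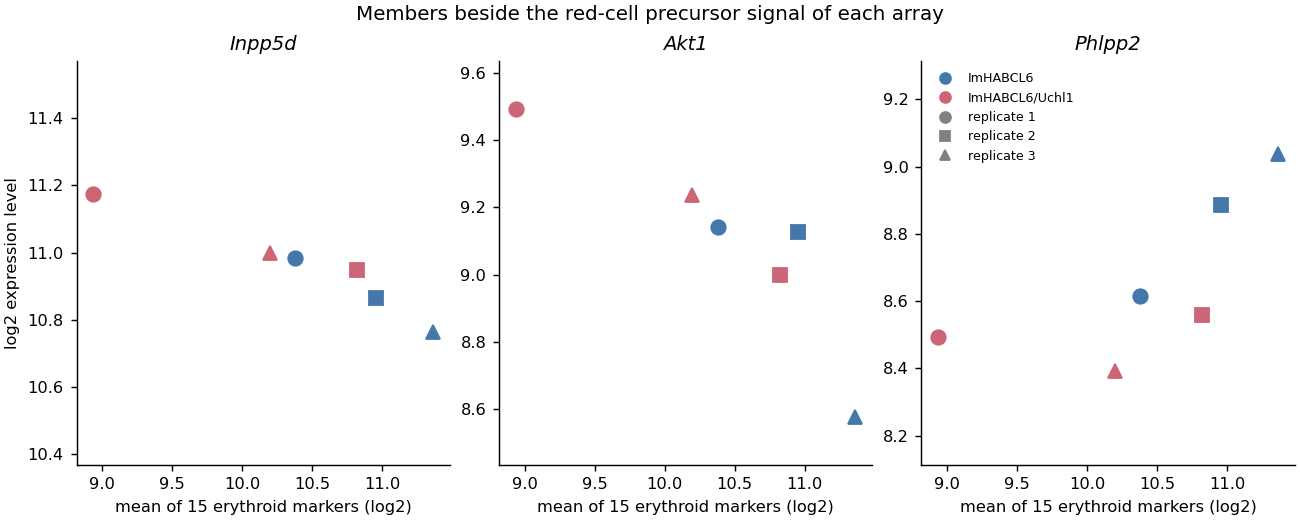
Log2 expression level of Inpp5d, Akt1 and Phlpp2 (vertical axes, each spanning 1.2 units) against the mean log2 level of 15 erythroid markers in the same array (horizontal axis), for 3 ImHABCL6 (blue) and 3 ImHABCL6/Uchl1 arrays (red). Inpp5d declines steadily from 11.18 at an erythroid mean of 8.94 to 10.76 at 11.36, while Phlpp2 is highest, at 9.04, in the array of highest erythroid mean.

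Among the 28 pairs of members, those with the strongest relations over the 6 arrays were Akt1 with Inpp5d (r = 0.913, rho = 0.943), Phlpp1 with Tsc1 (r = 0.864, rho = 0.829) and Phlpp2 with Inpp5d (r = -0.830, rho = -0.886). None passed over the 28 pairs (exact permutation p = 0.0264, 0.0181 and 0.0361 for r, each 0.318 adjusted; 0.0167, 0.0583 and 0.0333 for rho, adjusted 0.311, 0.320 and 0.311). Without the 2 arrays farthest from the median of the first gene r was 0.339, -0.028 and -0.261, over a narrower range of that gene. Within the 3 controls r was 0.849, 0.980 and -0.994, and within the 3 ImHABCL6/Uchl1 arrays 0.959, 0.779 and -0.100. Among 9089 other genes at or above the median level, the profile over 6 arrays most like that of Phlpp2 belonged to Sgo1 (r = 0.996), a protector of centromeric cohesion. Those most like Inpp5d and Akt1 were Dnajc2 (0.994) and Dcxr (0.99). For Akt2 it was Dgcr6 (0.991), for Pdpk1 Tmem30a (0.966), for Phlpp1 Casp4 (0.995), for Tsc1 Prkcd (0.986) and for Tsc2 2510002D24Rik (0.995). With 6 arrays and so many genes, values this high are a description only.

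The rest of the pathway was read from 7 lists with 65 genes, of which 58 were measured and the other 7 were not analysed here. With limma 0 of the 58 had an adjusted p under 0.05 and 6 had an unadjusted p under 0.05, a rule that 4.94% of all genes met. Of the 58 genes 33 lay lower and 25 higher with the transgene, with a median difference of -0.05 beside 0.0029 for all genes, and the groups did not overlap for 9 (6 lower, 3 higher), where over all genes 9.44% did not (5.49% lower, 3.95% higher). The number lower was 28 after quantile normalization, 38 after median centring and 41 with the erythroid covariate. The median difference of all genes also moved with these settings, to 0.0092, -0.029 and -0.022.

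Upstream of AKT, the PI3K subunits and adaptors lay higher for 7 of 10 genes, with a median difference of 0.10. Pik3cb, a catalytic subunit found in most tissues, read 5.89, 5.97 and 6.14 in ImHABCL6 cells and 5.20, 5.29 and 5.70 in ImHABCL6/Uchl1 cells, a difference of -0.60 (SE 0.17, limma adjusted p = 0.870), on a dim probe set. Pik3cg, the catalytic subunit of leukocytes that acts downstream of G-protein-coupled receptors, read 9.22, 9.50 and 9.30 against 10.06, 9.70 and 9.76, a difference of 0.50 (SE 0.15, limma adjusted p = 0.933). Both separated the groups, in opposite directions. Of 5 other lipid phosphatases 3 lay lower. Inpp5e, a 5-phosphatase of the primary cilium, differed by -0.46 (-0.16 with the mean of its probe sets) and separated the groups, and Inpp4b, which acts on the product of SHIP-1, differed by -0.20 with overlap, by 0.051 without ImHABCL6/Uchl1 replicate 2, by -0.49 without ImHABCL6/Uchl1 replicate 1, by -0.0086 without control replicate 1 and by -0.34 without control replicate 3.

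Among the phosphatases and kinases that act on AKT, the PP2A scaffold subunits averaged in opposite directions, neither passing the threshold. Ppp2r1b read 10.51, 10.73 and 11.12 in the controls and 10.07, 10.12 and 10.21 with the transgene (difference -0.65, SE 0.17, limma adjusted p = 0.854). Ppp2r1a read 12.49, 12.44 and 12.35 against 12.68, 12.61 and 12.76 (difference 0.26, SE 0.12, limma adjusted p = 0.998). Neither scaffold overlapped between groups, and of the 11 PP2A genes 6 lay lower, with a median difference of -0.015. In the list of mTOR complex 2, chaperones and binders 8 of 13 lay lower (median -0.06), and no gene separated the groups. Rictor, the defining subunit of the complex, differed by -0.30 (-0.023 with the mean of its probe sets, -0.13 without ImHABCL6/Uchl1 replicate 3), and Slc9a3r1, a scaffold of PHLPP proteins, by 0.21 (0.019 without suffixed probe sets, 0.079 without ImHABCL6/Uchl1 replicate 1). Of 4 related kinases 3 lay lower, among them the phosphoinositide-dependent Sgk3 (-0.38) and Sgk1 (-0.32). Sgk3 was at -0.25 without control replicate 3, and Sgk1 at -0.077 without control replicate 1, -0.51 without control replicate 3 and -0.18 without ImHABCL6/Uchl1 replicate 2.

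Downstream, 8 of 12 measured AKT substrates lay lower, with a median difference of -0.08. Cdkn1b, the inhibitor p27 of cyclin-dependent kinases, read 8.85, 10.24 and 10.46 in ImHABCL6 cells and 8.23, 9.86 and 8.40 in ImHABCL6/Uchl1 cells. Its difference of -1.02 (SE 0.52, limma adjusted p = 0.998) had the largest size of the 58 genes and was -0.15 with the erythroid covariate, -0.59 with the mean of its probe sets and -1.54 without ImHABCL6/Uchl1 replicate 2, and ImHABCL6/Uchl1 replicate 2 lay inside the range of the controls. Wnk1, a kinase of ion transport, differed by -0.29, by -0.19 without control replicate 3 and by -0.11 with the mean of its probe sets. Rheb, the GTPase that the TSC complex inactivates, read 11.78, 11.61 and 11.64 against 11.49, 11.09 and 11.52, so that all 3 transgenic arrays were lower (difference -0.31, SE 0.16, limma adjusted p = 0.998; -0.17 without ImHABCL6/Uchl1 replicate 2). Its relative Rhebl1 differed by -0.25 with overlap, and by -0.16 without ImHABCL6/Uchl1 replicate 3.

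**Figure D4:**
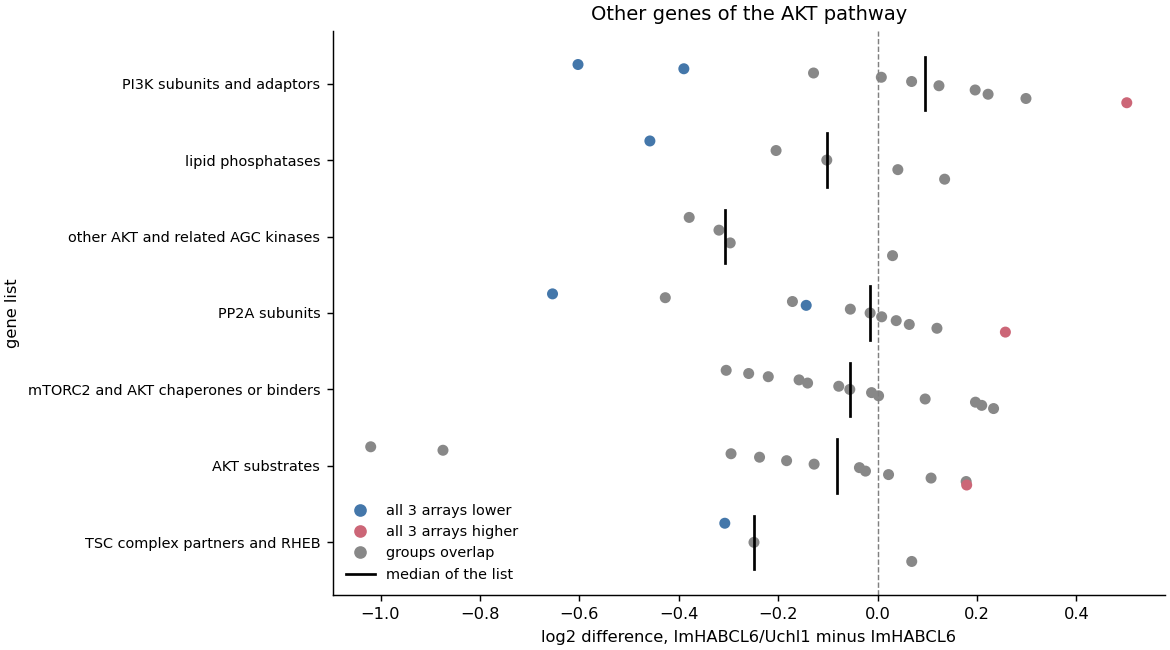
Log2 difference (horizontal axis, ImHABCL6/Uchl1 minus ImHABCL6) of the 58 measured pathway genes in 7 lists (vertical axis), with blue for genes lower and red for genes higher in all 3 transgenic arrays, grey for overlap and a black bar for the median of the list. The genes that separate the groups lie on both sides of 0, from Ppp2r1b at -0.65 to Pik3cg at 0.50.

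Across the alternatives Akt1 and Inpp5d kept a positive and Phlpp2 and Pdpk1 a negative difference, whereas Akt2, Phlpp1, Tsc1 and Tsc2 changed sign with at least 1 setting. The erythroid covariate gave the smallest difference of Akt1 and Inpp5d and the lowest of Phlpp1, Tsc1 and Tsc2. No setting brought a member past an adjusted p of 0.05 in limma.

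**Figure D5:**
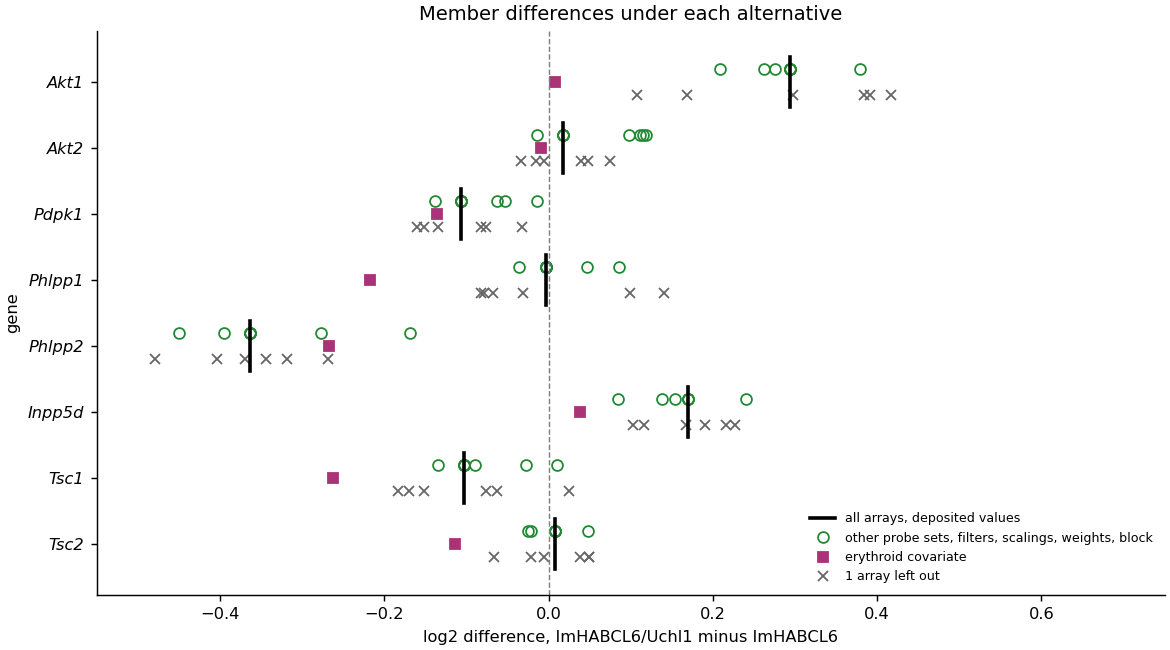
Log2 difference (horizontal axis, ImHABCL6/Uchl1 minus ImHABCL6) of each member with all arrays and the deposited values (black bar), under other probe set, filter, scaling, weighting and block settings (green circles), with the erythroid covariate (purple squares) and with 1 array left out (grey crosses). Phlpp2 stays between -0.48 and -0.17 and Akt1 between 0.0077 and 0.42; Akt2 and Tsc2 lie on both sides of 0.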

How the data were processed

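RNA of 6 mice, 3 of each genotype, was labelled with a 3' in vitro transcription kit, per the labels' protocols. The deposited values are log2 expression levels, which the authors made with RMA, Partek also being named, per the submitters' processing notes, without versions or settings. RMA compresses differences of dim probe sets. Nothing says that the replicate numbers pair mice.

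Symbols came from GEO's platform annotation, updated through Entrez identifiers with a RefSeq table (GRCm38.p6), which 18031 of 18193 genes matched and which changed 0 symbols. The genotype tests used lmFit and eBayes of limma 3.58.1 under R 4.3.3, two-sided, Benjamini-Hochberg adjusted over all genes at 0.05, and for all probe sets over 45037. Single values were also compared with exact permutation tests. The fit was also run on simulated data with independent noise. The simulated differences were all larger than that of any member, so the run does not show whether differences of the members' size are found. The members and gene lists were chosen with earlier results of these data known. Named were all members, the 2 genes of smallest p in each pathway list, and the gene most like each member. Alternatives were the mean of all probe sets, no suffixed probe sets, no genes under a mean of 6, quantile normalization, median centring, array weights, limma's trend and robust options, the erythroid mean as a covariate, a replicate block, and leaving out each array. Promoters came from RefSeq. Figures used matplotlib 3.10.9.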

Additional observations from a re-analysis of the deposited data

How the results depend on the processing

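No alternative gave a member or any gene an adjusted p under 0.05. Members near 0 changed sign. Akt2 was at -0.014 with median centring and -0.0086 with the erythroid covariate, Phlpp1 at 0.047 with quantile normalization (its probe set 1426994_at likewise) and 0.086 with array weights, Tsc1 at 0.0098 with the mean of all probe sets, and Tsc2 at -0.024 with median centring, -0.021 with array weights and -0.11 with the erythroid covariate. Tsc1 minus Tsc2 was at 0.0024 with the mean of all probe sets, and probe set 1416501_at of Pdpk1 at 0.070 with quantile normalization. Leaving out 1 array gave -0.034 to 0.075 for Akt2, -0.083 to 0.14 for Phlpp1, -0.18 to 0.025 for Tsc1 and -0.066 to 0.050 for Tsc2. It gave 2 to 6 members lower, 2 to 6 higher and 1 to 4 without overlap. The 4 were found without control replicate 1 (Pdpk1, Phlpp2, Akt2 and Inpp5d, against 18.1% of genes). There were 3 without ImHABCL6/Uchl1 replicate 2 (Phlpp2, Akt1 and Inpp5d, against 21.7% of genes). Each other array left out gave 1, Phlpp2, against 16.2% to 24.4% of genes. For Inpp4b leaving out 1 array gave -0.49 to 0.051, and its sign turned without ImHABCL6/Uchl1 replicate 2. Members higher were 2 without suffixed probe sets, which drops Inpp5d and Tsc2, 2 with median centring and 2 with the erythroid covariate. In the latter 2 settings the median difference of all genes was -0.029 and -0.022. Quantile normalization gave 2 members without overlap, Akt1 and Inpp5d, and not Phlpp2, where 10.6% of all genes did not overlap. Unadjusted passes among all genes were 598 without dim genes, 2819 with array weights, 2889 with the erythroid covariate, and 387 to 1330 without 1 array. With the replicate block Phlpp2 differed by -0.36 (limma adjusted p = 0.935) and no call changed. Same-numbered arrays had correlations of deviations of 0.431, 0.194 and -0.261. These values differ in sign and rest on few arrays a group, so they cannot decide whether the numbers pair the arrays.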
